A study of Mus musculus with 12 samples.

Results

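The mouse genome holds 8 troponin genes, and all 8 were found by symbol among the 55450 Ensembl genes of the count table. They are the troponin T genes *Tnnt1*, *Tnnt2* and *Tnnt3*, the troponin I genes *Tnni1*, *Tnni2* and *Tnni3*, and the troponin C genes *Tnnc1* and *Tnnc2*. Each had enough counts to be tested. Their RNA was followed through the growth of the tibialis anterior (TA), a fast muscle at the front of the lower leg, in WT mice of the 129Pas background (129SvPas in the methods of the study). Muscles were taken at E18.5, shortly before birth, and at 2 wks and 7 wks of age, from 4 mice per age, and each of the 12 libraries held the RNA of 1 mouse. The labels give no mutation and no treatment for any mouse, so age is the only difference between the groups that the labels give. RNA was extracted from pieces of whole muscle, selected for polyA and sequenced with a strand-specific kit, so a library also holds RNA of nerve, vessels, blood and connective tissue. In such bulk RNA, fewer fibers of a type and less RNA per fiber cannot be told apart.

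Troponin is the calcium switch of the thin filament of striated muscle. Troponin C binds calcium, troponin I holds back the myosin motor while calcium is low, and troponin T ties the complex to tropomyosin on the actin filament. Each subunit exists in forms made by separate genes and used by fast fibers, slow fibers or the heart, and embryonic skeletal muscle is known to use slow and cardiac forms beside the fast ones. *Tnnt3*, *Tnni2* and *Tnnc2* encode the fast forms of T, I and C. *Tnnt1* and *Tnni1* encode the slow forms of T and I, and *Tnnc1* encodes the troponin C that slow fibers share with the heart. *Tnnt2* and *Tnni3* encode the cardiac forms of T and I.

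The E18.5 libraries held 89118984 to 123449246 counts, the 2 wks libraries 63018968 to 105211269 and the 7 wks libraries 71307973 to 97917908. Of these, the 8 troponin genes took 0.803% to 1.23%, 3.13% to 3.43% and 2.95% to 4.28% in that order. Levels are given below as CPM, read counts relative to a library size scaled with TMM, a method that sets the sizes so that most genes keep their level. Scaling to the total count instead moved the median change of all 19276 tested genes from -0.09 to -1.02 on the log2 scale between E18.5 and 2 wks, and from -0.03 to -0.38 between 2 and 7 wks. All 8 skeletal muscle markers, among them *Acta1*, *Ckm* and *Myod1*, were detected at every age. Their summed level ranged over 3282 to 10905 CPM before birth, 64777 to 88718 in the 2 wks mice and 54389 to 91123 in the 7 wks mice. For the 9 heart markers the sums were 9.99 to 25.4 CPM, 7.98 to 20.2 CPM and 6.54 to 11.5 CPM in the same order of ages. *Nkx2-5*, a defining gene of heart muscle, was at 0 in all 12 libraries, and the other heart markers had counts at E18.5. *Mybpc3* had 31 to 73 counts per library at E18.5 and 0 to 2 later, and *Ryr2* had 191 to 298 and then 6 to 52. *Hcn4* went the other way, with 13 to 37 counts at E18.5 and 77 to 138 later.

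Of the genes, 6 lie in 3 pairs of a troponin T and a troponin I gene, and the pairs mix the fiber types except for the fast one. On GRCm38.p6, *Tnnt1* (ENSMUSG00000064179, chr7:4504569-4515975, minus strand) is followed after 2329 bp by *Tnni3* (ENSMUSG00000035458, chr7:4518305-4522718, minus strand), so that slow T neighbors cardiac I. *Tnni1* (ENSMUSG00000026418, chr1:135783033-135810989, plus strand) and *Tnnt2* (ENSMUSG00000026414, chr1:135836315-135852268, plus strand) pair slow I with cardiac T across 25325 bp, with *Lad1* between them. *Tnni2* (ENSMUSG00000031097, chr7:142441816-142444410, plus strand) and *Tnnt3* (ENSMUSG00000061723, chr7:142498771-142516213, plus strand) pair the fast forms across 54360 bp, with *Lsp1* between them. The troponin C genes stand alone. *Tnnc1* (ENSMUSG00000091898) lies at chr14:31208312-31211729 on the plus strand and *Tnnc2* (ENSMUSG00000017300) at chr2:164777161-164779734 on the minus strand. In the GENCODE annotation, 3 members share exon bases with a gene on the other strand, *Tnnt1* with the long noncoding *Gm73143* (138 bp), *Tnnt3* with *Prr33* (221 bp) and *Tnnc2* with *Ube2c* (616 bp). Whether the counting used the strand is not given in the sources used here. The stretch shared with *Ube2c* is most of the 897 bp of *Tnnc2* exon. The levels, ranks and shares of *Tnnc2* per kb below therefore rest on that unknown setting.

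The 150 bases before the start site are shown for the slow genes, for cardiac *Tnnt2* and for the fast gene *Tnnc2*, because they are the stretch where muscle promoters often carry short motifs for transcription factors. RefSeq start sites of GRCm38.p6 were matched for 6 of the 8 genes, all but *Tnnt3* and *Tnni2*. For *Tnni1* and *Tnnt2* the table lists 2 start sites, and the first listed was used, so the *Tnnt2* window reaches into the first bases of the longest gene model. The *Tnni1* window lies wholly inside the gene span given above, before a start site within the gene. So does the window of *Tnni3*, which is not shown. Capitals mark an E-box (CANNTG, bound by MYOD1 and MYOG), an M-CAT element (CATTCC on either strand, bound by TEAD factors) or TATAA on the strand of the gene, and the marked matches do not overlap each other. Positions count back from -1, the base before the start.
Tnnt1, slow T, chr7:4515976-4516125, minus strand: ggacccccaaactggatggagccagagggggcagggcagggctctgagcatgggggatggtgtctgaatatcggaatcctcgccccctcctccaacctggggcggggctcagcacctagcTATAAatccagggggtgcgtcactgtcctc
Tnni1, slow I, chr1:135799271-135799420, plus strand: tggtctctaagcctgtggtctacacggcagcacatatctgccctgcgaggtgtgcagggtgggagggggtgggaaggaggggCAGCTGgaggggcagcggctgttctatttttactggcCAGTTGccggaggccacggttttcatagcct
Tnnc1, slow and cardiac C, chr14:31208162-31208311, plus strand: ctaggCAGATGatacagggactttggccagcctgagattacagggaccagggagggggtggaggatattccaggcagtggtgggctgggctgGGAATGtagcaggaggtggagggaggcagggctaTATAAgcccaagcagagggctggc
Tnnt2, cardiac T, chr1:135836184-135836333, plus strand: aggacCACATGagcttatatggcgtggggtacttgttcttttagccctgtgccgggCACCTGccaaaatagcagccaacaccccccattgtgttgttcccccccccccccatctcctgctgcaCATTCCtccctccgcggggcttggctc
Tnnc2, fast C, chr2:164779735-164779884, minus strand: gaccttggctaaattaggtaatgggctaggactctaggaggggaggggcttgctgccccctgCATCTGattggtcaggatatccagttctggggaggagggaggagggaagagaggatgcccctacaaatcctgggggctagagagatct

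An M-CAT element stood in the *Tnnt2* window at -27 to -22 and in the *Tnnc1* window at -58 to -53, and in no other window of the 6 members, that of cardiac *Tnni3* included. Among all 27020 promoter windows of this length, 7.64% held that motif. TATAA stood in the *Tnnt1* window at -30 to -26 and in the *Tnnc1* window at -24 to -20, against 10.6% of all windows. E-boxes were in the *Tnnt2*, *Tnni1*, *Tnni3*, *Tnnc1* and *Tnnc2* windows, and 47.4% of all windows had at least 1. No window of a member held the MEF2 motif, which 1.71% of all windows held. A match of letters is a description of the window and says nothing about binding.

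Between E18.5 and 2 wks, the fast forms rose and the slow forms, with cardiac troponin T, fell. All 8 genes passed the edgeR test at an adjusted p under 0.05, 4 higher and 4 lower, where 65.7% of all tested genes passed, 31.5% higher and 34.2% lower. Between 2 and 7 wks, 5 of the 8 passed and all 5 were lower, while 27.5% of all tested genes passed, 13.5% higher and 13.9% lower. None of the 3 fast genes was among them. The median log2 change of the 8 genes was -0.22 in the earlier interval and -1.29 in the later one, beside -0.09 and -0.03 over all tested genes. Both intervals use the same 2 wks libraries, so their values are not independent of each other.

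**Figure D1:**
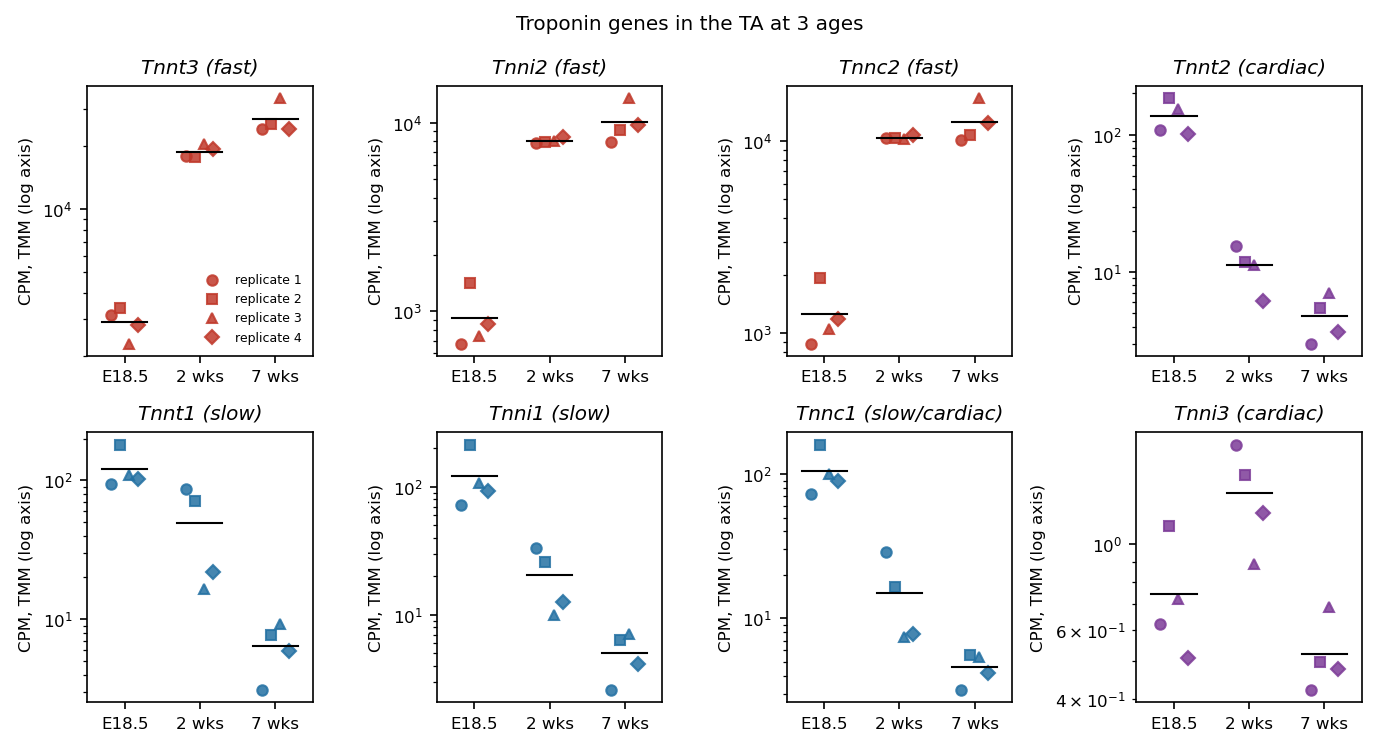
CPM (TMM-scaled, log axis) of the 8 troponin genes in each of the 12 libraries, by age, with each point a mouse and each bar the mean of 4. The fast genes *Tnnt3*, *Tnni2* and *Tnnc2* step up between E18.5 and 2 wks, whereas *Tnnt1*, *Tnni1*, *Tnnc1* and *Tnnt2* step down at both later ages and *Tnni3* stays below 2 CPM.

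Fast troponin T rose before 2 wks. *Tnnt3* stood at 3122, 3362, 2279.8 and 2786 CPM in the 4 E18.5 mice, at 17932, 17678, 20488 and 19398 in the 2 wks mice, and at 24262, 25621, 33911 and 24167 in the 7 wks mice. Each 2 wks mouse was above each E18.5 mouse, and each 7 wks mouse was above each 2 wks mouse. The rise to 2 wks was 6.54-fold, a log2 change of 2.71 ± 0.22 (SE, edgeR adjusted p = 4.37e-07). From 2 to 7 wks the log2 change was 0.52 ± 0.21 and missed the threshold (edgeR adjusted p = 0.0824). That later value depended on the scaling and the tool, since it was 0.17 with scaling to the total count, where the libraries of the ages overlapped, and passed with DESeq2 (adjusted p = 0.0142).

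Fast troponin I rose before 2 wks, and its later change did not pass the test. *Tnni2* was at 674, 1415, 736 and 862 CPM in the E18.5 mice, while the 2 wks mice had 7786, 7865, 8037 and 8358, and the 7 wks mice had 7854, 9113, 13471 and 9756. The earlier ages did not overlap, and the later ones did. The log2 change to 2 wks was 3.12 ± 0.27 (edgeR adjusted p = 7.09e-07), an 8.69-fold rise, and that from 2 to 7 wks was 0.33 ± 0.25 (adjusted p = 0.355). With scaling to the total count the later value turned to -0.03, and the earlier rise kept its direction.

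Fast troponin C moved almost in step with fast troponin I. *Tnnc2*, the calcium sensor of fast fibers, was at 883, 1947, 1049 and 1181 CPM in the E18.5 mice, while the 2 wks mice had 10342, 10330, 10302 and 10786, and the 7 wks mice had 10086, 10804, 16732 and 12455. In both *Tnni2* and *Tnnc2* the second E18.5 mouse was the highest of its age, and so was the third of the 7 wks mice. The log2 change to 2 wks was 3.05 ± 0.28 (edgeR adjusted p = 9.7e-07), against 0.26 ± 0.26 from 2 to 7 wks (adjusted p = 0.474, and -0.09 with scaling to the total count). The 4 mice of 2 wks were close to each other in the fast genes, with a coefficient of variation of 2.22% for *Tnnc2*, 3.17% for *Tnni2* and 6.97% for *Tnnt3*.

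The summed skeletal muscle markers followed the same mice. They were 3282, 10905, 4608 and 5272 CPM in E18.5 mice 1 to 4, highest in the second as the fast troponins were, and 54389, 61707, 91123 and 70603 CPM at 7 wks, highest in the third. Each single marker was highest in that E18.5 mouse. In that 7 wks mouse the sum was mostly *Acta1* and *Ckm*, and *Ryr1* and *Cacna1s* were the lowest of their age. At E18.5 the summed adipocyte markers were 229, 176, 1866 and 2635 CPM and the cartilage and bone markers 27.1 to 145 CPM, so the pieces of tissue differed in what surrounded the fibers. The part of these differences in the spread of the troponins was not tested.

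Slow troponin T fell in both intervals. *Tnnt1* was at 94.8, 180.3, 109 and 102 CPM in the E18.5 mice, while the 2 wks mice had 86.9, 71.0, 16.6 and 22.0, and the 7 wks mice had 3.09, 7.65, 9.23 and 5.87. The ages did not overlap, but 2 wks mice 1 and 2 were close to the lowest E18.5 mouse whereas mice 3 and 4 were well below it. The log2 change was -1.31 ± 0.47 to 2 wks (edgeR adjusted p = 0.0255) and -2.92 ± 0.50 from 2 to 7 wks (adjusted p = 0.00114), a 7.60-fold fall. The call in the earlier interval was lost without the third 2 wks mouse (-1.01), the fourth 2 wks mouse (-1.05) or the second E18.5 mouse (-1.05). Over the whole period the mean fell 18.8-fold.

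Slow troponin I and the troponin C of slow fibers fell in both intervals. *Tnni1* was at 72.4, 212, 106 and 92.6 CPM in the E18.5 mice, while the 2 wks mice had 33.1, 26.0, 10.1 and 12.7, and the 7 wks mice had 2.59, 6.32, 7.12 and 4.14. Its log2 change was -2.56 ± 0.44 to 2 wks (edgeR adjusted p = 0.000183) and -2.02 ± 0.44 afterwards (adjusted p = 0.00453), with no overlap between ages. *Tnnc1* was at 72.4, 160, 99.8 and 90.1 CPM in the E18.5 mice, while the 2 wks mice had 28.7, 16.4, 7.36 and 7.73, and the 7 wks mice had 3.17, 5.57, 5.39 and 4.17. It too had no overlap, with log2 changes of -2.81 ± 0.41 (adjusted p = 4.82e-05) and -1.71 ± 0.40 (adjusted p = 0.00682). In all 3 slow genes the second E18.5 mouse was the highest of its age, and 2 wks mice 1 and 2 were above mice 3 and 4.

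Other genes differed between the same 2 wks mice. *Myh7*, the slow myosin heavy chain, was at 39.5, 9.72, 7.90 and 4.44 CPM in mice 1 to 4, and *Myog*, a factor of muscle differentiation, at 91.5, 68.6, 38.0 and 35.3 CPM. *Myh2* and *Myh1*, heavy chains of adult fast fibers, had their highest value in mouse 4, at 4972 and 24684 CPM. The summed markers of smooth muscle were 939, 716, 419 and 490 CPM, those of red blood cells 476, 755, 145 and 148 CPM, and those of nerve 621, 233, 208 and 131 CPM. The first mouse thus had the highest slow myosin and nerve values of its age as well as the highest slow troponin values. Its high smooth muscle sum came from *Acta2* (681, 508, 177 and 190 CPM in mice 1 to 4). The other smooth muscle markers, *Myh11*, *Smtn* and *Cnn1*, were highest in mouse 4. The part of these genes and markers in the spread of *Tnnt1*, *Tnni1* and *Tnnc1* was not tested.

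Cardiac troponin T fell in both intervals, and more steeply before 2 wks than after. *Tnnt2*, which is known to be made in embryonic skeletal muscle as well as the heart, was at 108, 184, 153 and 102 CPM in the E18.5 mice, while the 2 wks mice had 15.5, 11.8, 11.3 and 6.11, and the 7 wks mice had 3.01, 5.43, 7.09 and 3.63. E18.5 stood clear of both later ages, and 1 of the 16 pairs of a 7 wks and a 2 wks mouse had the older mouse higher. The fall to 2 wks was 12.3-fold, a log2 change of -3.62 ± 0.34 (edgeR adjusted p = 1.17e-06), and the fall after it 2.33-fold, a log2 change of -1.22 ± 0.31 (adjusted p = 0.0112). The 9 heart markers, at a summed level of at most 25.4 CPM at E18.5, stood much lower at every age than those of skeletal muscle. Most of the heart sum at E18.5 was *Myh6*, at 8.35, 23.4, 8.07 and 10.4 CPM in the 4 mice. The tissue source of the *Tnnt2* RNA was not tested.

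Cardiac troponin I was close to the floor of the libraries, with 21 to 192 counts in each. *Tnni3* was at 0.624, 1.11, 0.721 and 0.509 CPM in the E18.5 mice, while the 2 wks mice had 1.79, 1.50, 0.890 and 1.20, and the 7 wks mice had 0.421, 0.497, 0.689 and 0.478. The fall from 2 to 7 wks, without overlap, was -1.36 ± 0.32 on the log2 scale (edgeR adjusted p = 0.00648). The higher value at 2 wks than at E18.5 (0.86 ± 0.30, adjusted p = 0.0216) had overlapping libraries and did not hold. It was -0.05 with scaling to the total count (adjusted p = 0.894), 0.11 once the GC trend of the libraries was taken out and 0.13 once the trend over transcript length was. It also missed the threshold without any of 4 libraries, E18.5 mice 1 and 4 and 2 wks mice 1 and 2. *Tnni3* shares 394 bp of exon with *Dnaaf3* on the same strand, and reads of the 2 genes in that stretch cannot be told apart.

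Over the whole period, E18.5 against 7 wks, 7 of the 8 genes passed, 3 higher and 4 lower, where 71.4% of all tested genes passed, 34.3% higher and 37.1% lower. The fast genes ended 9.35-fold (*Tnnt3*), 10.9-fold (*Tnni2*) and 9.90-fold (*Tnnc2*) above E18.5. *Tnnt2*, *Tnni1* and *Tnnc1* ended 28.6-fold, 24.0-fold and 23.1-fold below it. These folds, like those given above, are of TMM-scaled means, and their size depended on the scaling. With scaling to the total count, the rises of the fast genes were smaller and these falls larger. Mean *Tnnt3* then went from 4793 CPM at E18.5 to 18500 at 7 wks, and mean *Tnni2* from 1533 to 6880. Mean *Tnnt2* went from 229 to 3.27 CPM and mean *Tnnc1* from 176 to 3.14. *Tnni3* did not pass (log2 change -0.50 ± 0.31, edgeR adjusted p = 0.160), but it passed as a fall with scaling to the total count (-1.78), with upper-quartile scaling (-0.74) and with the GC trend (-1.17) or the length trend (-1.18) removed.

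The change before 2 wks differed from the change after it for 5 of the 8 genes, in a test of the difference itself that 38.4% of all tested genes passed, 21.6% with a higher and 16.8% with a lower value. Of the 5, 4 were higher and 1 lower. The change to 2 wks minus the change from 2 to 7 wks was 2.79 for *Tnni2* (edgeR adjusted p = 0.000345), 2.78 for *Tnnc2* (adjusted p = 0.000395) and 2.19 for *Tnnt3* (adjusted p = 0.000524), all on the log2 scale. It was 2.22 for *Tnni3* (adjusted p = 0.00476) and -2.40 for *Tnnt2* (adjusted p = 0.00499), whose fall was steeper before 2 wks. For the 3 genes of slow fibers the difference did not pass, at 1.62 for *Tnnt1* (adjusted p = 0.119), -0.55 for *Tnni1* (adjusted p = 0.579) and -1.10 for *Tnnc1* (adjusted p = 0.219). It passed for *Tnnt1* without the third 2 wks mouse (2.20), and for *Tnnc1* without the first (-2.08) or with the length trend removed (-2.07).

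**Figure D2:**
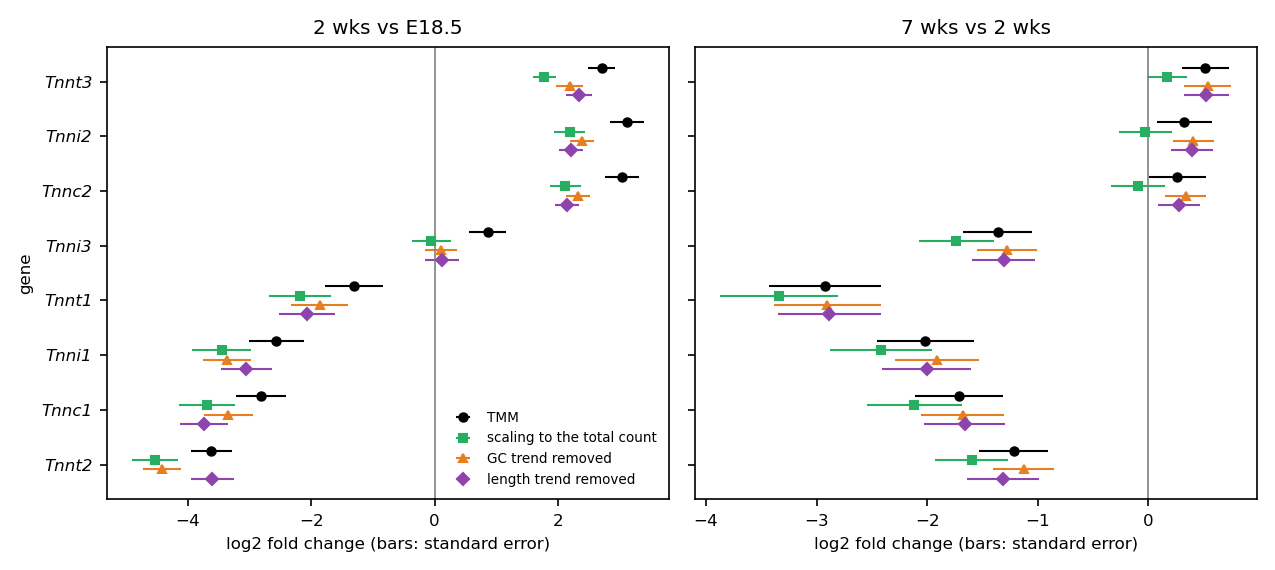
Log2 change of each troponin gene between E18.5 and 2 wks and between 2 and 7 wks, from edgeR, with bars for the standard error, under TMM, scaling to the total count, and removal of each library's trend over GC content or transcript length. *Tnnt3*, *Tnni2* and *Tnnc2* lie at 2.71, 3.12 and 3.05 with TMM in the earlier interval and close to 0 in the later one, and *Tnni3* moves to about 0 in the earlier interval under the other 3 settings.

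Within a library, the ratio of 2 troponin genes does not depend on how libraries are scaled. Ratios were formed from counts per kb of exon, and each was compared between ages by a two-sided exact permutation test over the 70 regroupings of 4 mice against 4. The smallest p this design allows is 0.0286, which is 0.0444 after Benjamini-Hochberg adjustment over the 42 tests of ratios and totals. In the sentences that follow, a change without overlap between ages has these 2 values.

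The fast-to-slow ratio rose in both intervals for every subunit. For troponin T, log2 *Tnnt3*/*Tnnt1* was 4.12, 3.30, 3.47 and 3.85 in the E18.5 mice, 6.77, 7.04, 9.34 and 8.86 in the 2 wks mice, and 12.01, 10.79, 10.92 and 11.08 in the 7 wks mice. For troponin I, log2 *Tnni2*/*Tnni1* was 4.34, 3.85, 3.91 and 4.34, then 9.00, 9.36, 10.76 and 10.48, then 11.61 to 12.68. For troponin C, log2 *Tnnc2*/*Tnnc1* was 3.91, 3.91, 3.69 and 4.01, then 8.79, 9.60, 10.75 and 10.74, then 11.93, 11.22, 11.90 and 11.84. No age overlapped another for any subunit. The mean change before 2 wks was 4.32 for T, 5.79 for I and 6.09 for C, and after 2 wks it was 3.20 for T, 2.25 for I and 1.75 for C. The sums of both intervals were 7.52, 8.04 and 7.84 on the log2 scale.

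The slow forms of the 3 subunits did not fall together. Log2 *Tnni1*/*Tnnt1* averaged -0.68 ± 0.26 (SD, n = 4) before birth, -1.68 ± 0.38 in the 2 wks mice and -0.95 ± 0.11 in the 7 wks mice. It dropped by 1.01 to 2 wks and rose by 0.74 afterwards, both without overlap (exact permutation p = 0.0286, adjusted p = 0.0444). Log2 *Tnnc1*/*Tnnt1* moved the same way, from 0.89 ± 0.12 to -0.49 ± 0.39 and back to 0.69 ± 0.34, changes of -1.38 and 1.18, both without overlap. At 2 wks, slow T RNA was therefore high relative to slow I and slow C RNA, in every 2 wks mouse against every mouse of the other ages. Between E18.5 and 7 wks the ratios did not pass the test (-0.27 for I over T, exact permutation adjusted p = 0.130, and -0.21 for C over T, adjusted p = 0.330). Log2 *Tnnc1*/*Tnni1* was 1.57, 1.20 and 1.64 at the 3 ages, and no change of it passed.

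The ratios between the fast forms moved less. Log2 *Tnnc2*/*Tnni2* averaged 1.34 ± 0.05 before birth, 1.27 ± 0.02 in the 2 wks mice and 1.21 ± 0.05 in the 7 wks mice, a change of -0.14 over the whole period without overlap (exact permutation p = 0.0286, adjusted p = 0.0444), or 0.910-fold. Log2 *Tnni2*/*Tnnt3* was -0.77, 0.20, -0.19 and -0.25 in the E18.5 mice, and 0.21 ± 0.08 on average at 2 wks and 0.00 ± 0.15 at 7 wks. The first E18.5 mouse was the lowest of all 12 in that ratio, as in log2 *Tnnc2*/*Tnnt3*, where it was at 0.51 and the other E18.5 mice at 1.09 to 1.54. No change of *Tnni2*/*Tnnt3* or *Tnnc2*/*Tnnt3* passed the test.

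**Figure D3:**
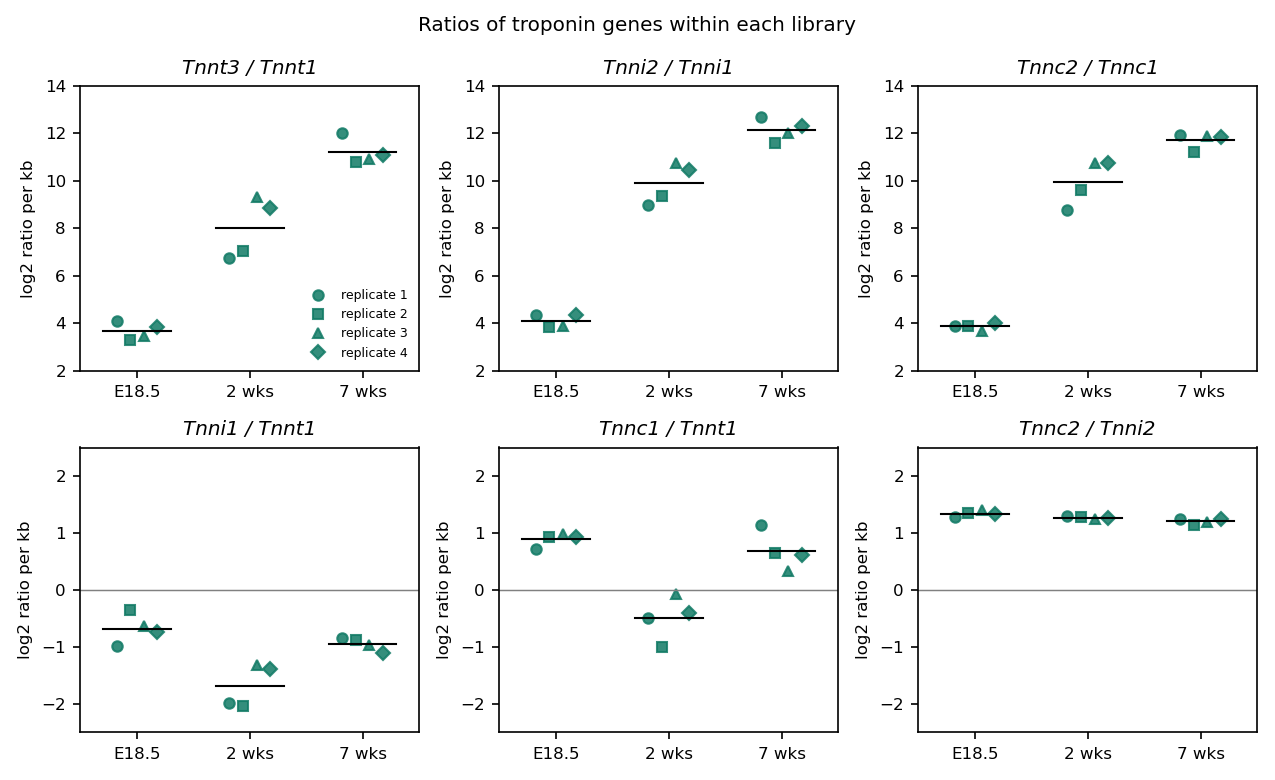
Log2 ratios of troponin genes within each library, per kb of exon, by age, with points for mice and bars for the mean of 4. The fast-to-slow ratios of T, I and C climb from about 4 at E18.5 to between 11 and 13 at 7 wks, and the ratios of slow I and slow C to slow T dip at 2 wks.

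The cardiac forms fell against the fast ones in both intervals. Log2 *Tnnt2*/*Tnnt3* was -5.41, -11.78 and -13.51 at the 3 ages, and log2 *Tnni3*/*Tnni2* was -10.86, -13.17 and -14.79. Neither ratio overlapped between any 2 ages. The ratio of cardiac to fast troponin I thus fell by 2.30 on the log2 scale to 2 wks, where the scaled level of *Tnni3* itself gave no stable direction.

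Summed per kb of exon, the RNA of each subunit rose before 2 wks. On the log2 scale of TMM-scaled CPM per kb, troponin T went from 9.45 ± 0.24 (SD, n = 4) to 12.03 ± 0.09, troponin I from 9.14 ± 0.49 to 12.24 ± 0.04, and troponin C from 10.49 ± 0.49 to 13.51 ± 0.03, all without overlap. From 2 to 7 wks the change was 0.50 for T (exact permutation p = 0.0286, adjusted p = 0.0444), 0.30 for I (adjusted p = 0.130) and 0.23 for C (adjusted p = 0.253). That of T was 0.15 with scaling to the total count and then missed the threshold (adjusted p = 0.184).

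Most of the troponin RNA came from the fast genes at every age. At E18.5 the slow and cardiac genes together made up 6.99% to 11.5% of troponin T RNA (median 9.56%), 4.75% to 6.52% of troponin I RNA (5.53%) and 5.83% to 7.18% of troponin C RNA (6.25%), counted per kb of exon. At 2 wks the shares were 0.181% to 0.953% for T, 0.0651% to 0.211% for I and 0.0581% to 0.225% for C. At 7 wks they were 0.0304% to 0.0673%, 0.0188% to 0.0356% and 0.0255% to 0.0419%. The ages stood apart for each subunit. For the second E18.5 mouse, the share of T was 11.5%, and for the third 2 wks mouse 0.181%.

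The shares depend on the length by which counts are divided, since exon unions of these genes contain alternative exons that a muscle may not use. Per coding length, the slow and cardiac share at E18.5 was 6.69% to 11.2% for T, 9.87% to 13.3% for I and 6.87% to 8.43% for C. By 7 wks it was 0.0278% to 0.0571% for T, 0.0373% to 0.0743% for I and 0.0304% to 0.0499% for C. Within troponin T at E18.5, *Tnnt2* contributed a median of 2.08% per kb of exon but 4.26% per coding length, against 7.20% and 4.50% for *Tnnt1*.

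**Figure D4:**
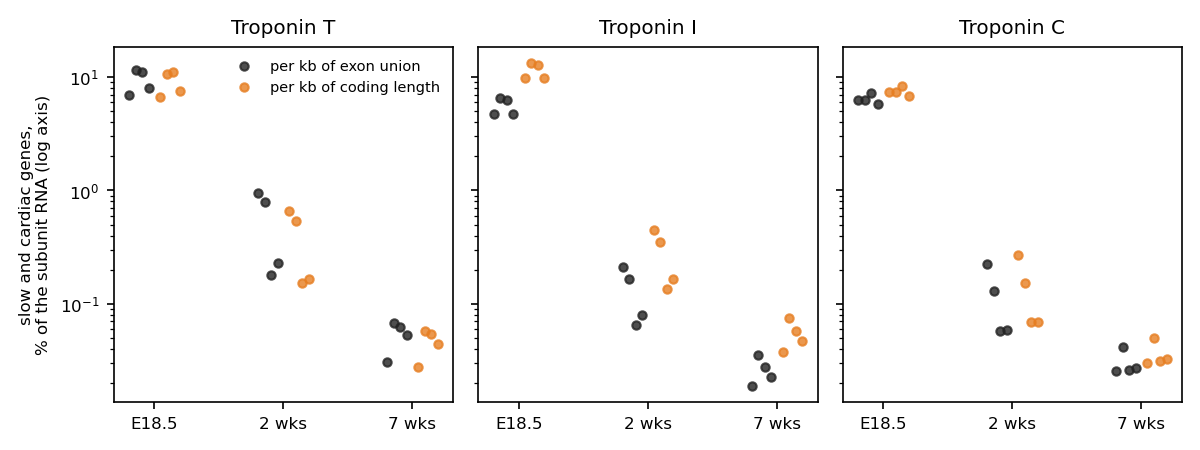
Share of troponin T, I and C RNA that came from slow and cardiac genes in each library (percent, log axis), by age, with counts divided by the exon union (black) or the coding length (orange) and a point for each mouse. Per kb of exon the shares drop from between 4.75% and 11.5% at E18.5 to at most 0.953% at 2 wks and at most 0.0673% at 7 wks.

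Ranked by CPM per kb of exon, the genes kept the fast forms on top. At E18.5 the means were 1410 for *Tnnc2*, 639 for *Tnnt3*, 555 for *Tnni2*, 95.6 for *Tnnc1*, 51.0 for *Tnnt1*, 33.6 for *Tnni1*, 15.3 for *Tnnt2* and 0.297 for *Tnni3*. Neighbors in this order had overlapping mice for *Tnnt3* and *Tnni2*, and for each step from *Tnnc1* down to *Tnnt2*. At 7 wks the means were 13957 for *Tnnc2*, 6053 for *Tnni2*, 5977 for *Tnnt3*, 4.15 for *Tnnc1*, 2.71 for *Tnnt1*, 1.40 for *Tnni1*, 0.537 for *Tnnt2* and 0.209 for *Tnni3*. *Tnni2* and *Tnnt3* overlapped there, as did each step from *Tnnc1* down to *Tnnt2*. At 2 wks *Tnnt1* (20.6) stood above *Tnnc1* (13.6) and *Tnni1* (5.68), with overlap between mice at both steps. Within a library, every step among the slow and cardiac genes held in 4 of 4 mice at each age, and so did the steps between fast and slow genes, whereas *Tnnt3* was above *Tnni2* in 3 of 4 E18.5 mice and *Tnni2* above *Tnnt3* in 2 of 4 at 7 wks. Per coding length, mean *Tnnt3* was instead above both *Tnnc2* and *Tnni2* at every age (26618 CPM per coding kb at 7 wks, against 20160 for *Tnnc2*). Steps among the slow genes also reversed, *Tnnt1* and *Tnni1* at E18.5 and 7 wks, *Tnnc1* and *Tnni1* at 2 wks, and *Tnnc1* and *Tnnt1* at 7 wks, so the order within both groups rests on the length chosen.

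Likeness of pattern was measured over the 12 libraries as the root mean square difference of centered log2 CPM, against the 4087 genes whose mean log2 CPM reached 5. The gene most like *Tnni2* was *Tnnc2* and the reverse, at 0.0672, followed for both by *Sgca* (0.0854 from *Tnni2* and 0.0772 from *Tnnc2*), which encodes a sarcoglycan of the muscle membrane, and *Ak1* (0.130 and 0.108), an adenylate kinase. *Tnnt3* was most like *Mapk12* (0.150), *Myoz1* (0.160) and *Myadml2* (0.192), and it was at 0.286 from both other fast genes. *Tnnt1* was most like *Cdkn1c* (0.447), *Maged2* (0.453) and *H19* (0.732). *Cdkn1c*, an inhibitor of the cell cycle, was at 163, 123.4, 60.7 and 62.0 CPM in 2 wks mice 1 to 4, the order of which resembles that of *Tnnt1*. *Tnni1* was nearer to *Tnnc1* (0.285) than to *Tnnt1* (0.488). *Tnnc1* was most like *Gpc3* (0.503), *Gatm* (0.546) and *Grb10* (0.548), and *Tnnt2* like *Gpc3* (0.505), *Scd2* (0.651) and *Gatm* (0.657), apart from other troponins. The distances are descriptions over the same 12 libraries, and they grow where a gene varies more.

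The partners of troponin on the thin filament were counted from the same fit. Of 10 such genes, 8 changed between E18.5 and 2 wks, 7 higher and 1 lower, with a median log2 change of 1.48 beside -0.09 over all tested genes. Among all tested genes, 65.7% changed in that interval and 27.5% from 2 to 7 wks. *Acta1*, the skeletal muscle actin, rose by 3.76 on the log2 scale and *Tpm1*, a tropomyosin, by 3.18, while *Tpm3*, the tropomyosin of slow fibers, fell by 0.83. From 2 to 7 wks, 5 of 10 changed, 3 higher and 2 lower. *Actc1*, the cardiac actin that young muscle also makes, fell by 2.01 and *Tpm3* fell by 0.97, and *Lmod2*, a filament-length regulator, rose by 1.21. Before 2 wks the change of *Actc1* was 1.12 and missed the threshold (edgeR adjusted p = 0.0544). *Neb*, the giant protein along the filament, rose by 0.81 and lost its call with scaling to the total count (0.49). With that scaling, the split was 5 higher and 2 lower before 2 wks, and 1 higher and 3 lower after.

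The thick filament list held 14 genes, of which 12 changed before 2 wks, 8 higher and 4 lower, and 6 after, 1 higher and 5 lower. For this list and the next, the shares of all tested genes were 65.7% before 2 wks and 27.5% after. *Myh4* and *Myh1*, heavy chains of adult fast fibers, had the largest rises before 2 wks and *Myh8* and *Myh3*, the perinatal and embryonic ones, the largest falls. *Mybph*, a relative of the myosin-binding proteins, rose by 3.28 before 2 wks and fell by 3.63 after. Its change from E18.5 to 7 wks did not pass (-0.35, edgeR adjusted p = 0.340). *Myh7* fell by 1.84 after 2 wks. *Mybpc1* was higher after 2 wks by 0.89 (edgeR adjusted p = 0.0389) and lost that call with upper-quartile or total-count scaling, the replicate number as a block, the GC or length trend removed or a log2 change beyond 1 required, and without 2 wks mouse 1, 2 or 3 or 7 wks mouse 1 or 2. All 10 calcium-handling genes changed before 2 wks, 7 higher and 3 lower, and 4 after, 2 higher and 2 lower. *Pvalb*, the calcium buffer of fast fibers, rose by 7.60 and *Sln*, an inhibitor of the calcium pump, fell by 5.95 before 2 wks and then fell by 1.45. With scaling to the total count the later splits were 0 higher and 7 lower for the thick filament and 0 higher and 4 lower for calcium handling.

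Of 15 transcription factors known to act on fast or slow fiber genes, 9 changed in each interval, 6 higher and 3 lower before 2 wks and 7 higher and 2 lower after. That is 60% of the list, beside 65.7% of all tested genes before 2 wks and 27.5% after. *Prox1*, a factor known for slow fibers, fell by 1.58 and then fell by 0.89. *Sox6*, known as a repressor of slow fiber genes, rose by 0.96 before 2 wks with TMM and by 1.16 after. In the later interval *Mef2c* rose by 1.23 and *Myog* fell by 3.01. With scaling to the total count, the split of the list was 1 higher and 8 lower before 2 wks and 3 higher and 2 lower after. *Nfatc1*, a calcium-driven factor, rose by 1.79 and *Gtf2ird1* fell by 1.06 before 2 wks. The list counts with TMM stand beside the same shares of all tested genes as above. Those shares do not apply to the splits with scaling to the total count. That scaling gave 2552 higher and 11917 lower of 19276 tested genes before 2 wks, and 948 higher and 5391 lower after. None of the lists was tested as a set.

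**Figure D5:**
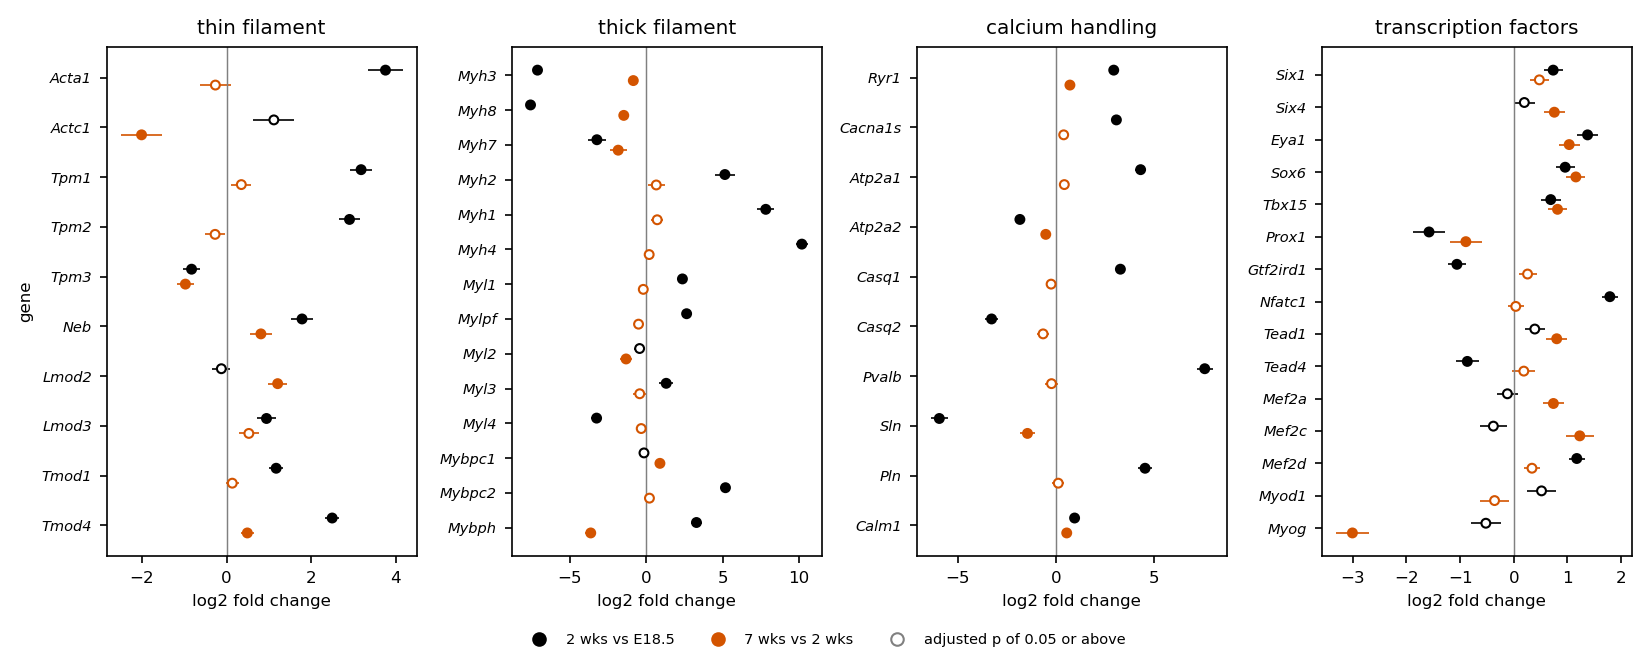
Log2 changes of the genes of 4 lists related to troponin (thin filament partners, thick filament, calcium handling, transcription factors), between E18.5 and 2 wks and between 2 and 7 wks, from edgeR; filled points have an adjusted p under 0.05. *Acta1* and *Tpm1* lie near 3.76 and 3.18 in the earlier interval, and *Actc1* at -2.01 in the later one.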

How the data were processed

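RNA of the TA of 12 WT mice was sequenced, 4 at each of 3 ages. The authors deposited raw read counts per Ensembl gene, whole numbers without normalization. The submitters' processing notes name bcl2fastq 2.17.1.14, cutadapt 1.10, STAR 2.5.3a and HTSeq 0.6.1p1 and the build mm10, whereas the methods of the study name GRCm39, so the build of the counts is uncertain and printed coordinates and sequences are those of RefSeq on GRCm38.p6. The strand setting and annotation of the counting are not given in the sources used here. Names, lengths and GC content came from GENCODE vM39, which matched 51477 of the 55450 genes, and the other 3973 took 0.0394% of counts.

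All 12 libraries entered 1 edgeR 4.0.16 quasi-likelihood fit on age alone (R 4.3.3, with limma 3.58.1), after TMM and filterByExpr, which left 19276 genes. Benjamini-Hochberg adjustment ran over all tested genes, and the threshold was 0.05. Ratios and totals used counts plus 0.5 per kb and two-sided exact permutation tests (Python 3.11.15, scipy 1.17.1). P-values measure the spread between mice, and the biological coefficient of variation was 0.279. The members and gene lists were chosen with earlier results of these data known, and any gene of the related lists was open to naming. Alternatives were total-count, upper-quartile and RLE scaling, TMM with the 37 mitochondrially encoded and the 20 most abundant genes left out, DESeq2 1.42.0, other filters, the replicate number as a block, a fold change beyond 1 on the log2 scale, GC and length trends removed, and each library left out. The fit was tested on simulated counts. No 2 replicates of an age were copies, since each of the 18 pairs differed beyond sampling noise. At these depths the spread between mice far exceeded counting error, less so for *Tnni3*.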

Additional observations from a re-analysis of the deposited data

Results flagged for a closer look

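In 66 sets of 4 mice examined for a value standing apart from the rest (levels, ratios and totals by age), 5 had one, where chance gives about 1 in 20, or 3.3. They were *Tnnt1* in the second E18.5 mouse (180.3 CPM), *Tnnt3* in the third 7 wks mouse (33911 CPM), *Tnnc2* in 2 wks mouse 4 (10786 CPM), the log2 ratio *Tnnc2*/*Tnnc1* in the second 7 wks mouse (11.22), and the summed troponin C of 2 wks mouse 4 (13.55 on the log2 scale of CPM per kb). The sets are not independent, since ratios and totals reuse the levels. *Tnnc2* made up at least 99.7% of summed troponin C at 2 wks, so both flags of 2 wks mouse 4 rest on nearly the same value. The summed skeletal muscle markers were also highest in that E18.5 mouse (10905 CPM), that 7 wks mouse (91123 CPM) and that 2 wks mouse (88718 CPM). Single markers did not all follow the sums of the later ages. *Myod1*, *Myog* and *Myf6* were lowest of their age in that 2 wks mouse, and *Ryr1* and *Cacna1s* in that 7 wks mouse. The part of the markers in the flagged values was not tested.

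The change to 2 wks differed from the change after 2 wks, by edgeR's test of the difference, for *Tnni2* (2.79 on the log2 scale), *Tnnc2* (2.78), *Tnnt3* (2.19), *Tnni3* (2.22) and *Tnnt2* (-2.40).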

How the results depend on the processing

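Of 376 member changes recomputed under settings that kept all libraries, 361 kept their side of the threshold, and their direction where they passed. Without passing in either fit, *Tnni2* and *Tnnc2* changed sign for 7 wks against 2 wks with scaling to the total count. *Tnni3* turned from 0.86 to -0.0499 between E18.5 and 2 wks with scaling to the total count. With all 12 single libraries left out in turn, 375 of 384 kept both their direction and their side of the threshold. The number of members that passed was 7 to 8 for 2 wks against E18.5 and 5 in each case for 7 wks against 2 wks. It was 7 in each case for 7 wks against E18.5 and 5 to 6 for the difference of the intervals. The 396 ratio changes and 108 changes of totals recomputed in this way were not tested again. Each moved by less than the pooled SD of the ages compared, and none that had passed changed direction. Among changes from E18.5 to 7 wks that had not passed, log2 *Tnnc2*/*Tnnt3* ran from -0.07 to 0.27 and log2 *Tnnc1*/*Tnni1* from -0.06 to 0.18. For 7 wks against 2 wks, leaving out a library gave 3 to 5 thin filament, 3 to 8 thick filament and 1 to 4 calcium-handling genes and 3472 to 6146 of all genes. The low values came without the first 2 wks mouse (3, 3, 1 and 3472), without the second for calcium handling (1), and without the fourth 7 wks mouse for the thin filament (3) and calcium handling (2).

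Requiring a log2 change beyond 1 left 5 thin filament genes and 3 transcription factors for 2 wks against E18.5. For 7 wks against 2 wks it left 1 member, 0 thin filament, 1 thick filament and 0 calcium-handling genes and 1 transcription factor by the same edgeR fit, of which 5 troponins, 5 thin filament and 4 calcium-handling genes passed without that bound. Over all genes it left 5507, 561, 7574 and 2463 for 2 wks against E18.5, 7 wks against 2 wks, 7 wks against E18.5 and the difference of the intervals. From 2 to 7 wks, upper-quartile scaling gave 3 thin filament genes, and scaling to the total count gave 5 transcription factors and a troponin T total of 0.15. Over all genes, the earlier interval had 2552 rises and 11917 falls with the total count, beside 6074 and 6594 with TMM, and the later one 948 and 5391, beside 2608 and 2687. With the GC trend removed, 2 more ratio changes passed, *Tnnc2*/*Tnni2* from 2 to 7 wks (-0.068) and *Tnni1*/*Tnnt1* from E18.5 to 7 wks (-0.48). The cause of these shifts was not tested.

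With the replicate number as a block, no member gained or lost a call, and the change of *Tnnt1* was -1.41 to 2 wks and -2.75 after. The correlation of same-numbered libraries ran from -0.142 to 0.284, and they came from different mice, so the numbers did not pair the samples. For the ratios, the exact sign-flip test within replicate numbers cannot go below p = 0.125 with 4 pairs, so their blocked changes are values without a call, and no other blocked test of them was run.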
